A study of Homo sapiens with 6 samples.

Results

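The genes described here are the interferon-stimulated genes and the core of the JAK-STAT pathway, 43 genes listed by name. They comprised chains of the interferon receptors, the Janus kinases, STAT and IRF transcription factors, antiviral effectors, and genes of class I antigen presentation. A gene was represented by the probe set with the highest mean signal over all 6 arrays, and 42 of the 43 had a probe set that carried its symbol alone, out of 19775 genes measured in this way. STAT2 was not analysed here.

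The cells were SUM-LM1, a lung-metastatic derivative of the human breast cancer line SUM159. The plates were of ultra-low attachment, so that the cells grew unattached, and held HuMEC medium with bovine serum albumin and antibiotics at a seeding density of 12500 cells per ml. One group of 3 samples received recombinant human activin B at 50 ng/ml for 6 h, and the other group of 3 received the albumin-saline vehicle for the same time. Both groups were the same cell line, and the results hold for 1 line, 1 dose and 1 time point. Per the methods of the study, SUM159-LM1 cells were given a reporter of viral thymidine kinase, GFP and luciferase for tracking in mice; whether the cells on these arrays carried it is not given in the sources used here. Total RNA, 50 ng per sample, was the input for a human expression microarray, whose probe sets report gene transcripts as log2 signals. The sample titles call the replicates biological without naming separate days or cultures, so p values cover no wider spread than that between these samples.

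Interferons are secreted signaling proteins that cells make, for example, on contact with virus. Type I interferons bind a receptor that contains IFNAR1, and interferon gamma binds the pair IFNGR1 and IFNGR2. The kinases JAK1, JAK2 and TYK2 sit on the inner tails of these receptors and phosphorylate STAT factors, which then enter the nucleus. A STAT complex that contains IRF9 binds the interferon-stimulated response element (ISRE) in the promoters of antiviral genes, and STAT dimers bind the gamma-activated site (GAS). Tumor cells can run this program after exposure to interferon or when their own sensors meet nucleic acids in the cytosol. Activin B belongs to the TGF-beta family and signals through serine/threonine kinase receptors and SMAD factors, which is a separate route. The comparison asked whether genes of the interferon route differed between cells with and without activin B.

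The promoters of many of these genes carry the elements named above. RefSeq promoter sequences of the assembly GRCh38.p14, which span 250 bases before to 50 bases after each gene start, were given for 35 of the 42 measured genes. The core of the ISRE was searched as GAAANNGAAA on both strands. It was present in 19 of 35 member promoters (54.3%) against 4.38% of 27305 genes in the table and 4.16% of 15843 protein-coding genes. The core of the GAS, searched as TTCNNNGAA on both strands, was present in 10 of 35 member promoters (28.6%) against 9.38% of all genes. Both cores were found in 6 member promoters and overlapped each other in 4 of them, those of MX1, BST2, IFITM1 and IFI27. A match describes letters in a window and does not show that a factor binds there. The receptors, the kinases and the STAT factors held neither core, and all matches lay in IRF factors, effector genes and genes of antigen presentation. IRF2, IRF7, IFIT2, OAS2, OASL, MX2 and GBP2 had no entry.

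Stretches of 80 bases from 7 promoters are shown because they carry an element common in the group, in an antiviral modifier, an RNA-binding protein, an endoplasmic reticulum protein, a virus tether, the class I light chain, an inhibitor of the pathway that is no member and an IRF factor. All of them lie upstream of the annotated gene start, outside the transcript. Each is written 5′ to 3′ on the strand of the gene in lower case, and capitals mark the ISRE core (in IRF1, the GAS core). In IFIT1 the core reads on the opposite strand, so the capitals show its reverse complement. In ISG15, BST2 and B2M, 2 matches overlap and share their middle letters. The window of ISG15 was chr1:1013352-1013431 on the plus strand, that of IFIT1 was chr10:89392478-89392557 on the plus strand, and that of B2M was chr15:44711341-44711420 on the plus strand. On the minus strand, the window of IFI6 was chr1:27672273-27672352, that of BST2 was chr19:17405713-17405792, that of SOCS1 was chr16:11256273-11256352 and that of IRF1 was chr5:132490854-132490933.
ISG15: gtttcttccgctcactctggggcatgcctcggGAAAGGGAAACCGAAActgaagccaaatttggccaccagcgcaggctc
IFIT1: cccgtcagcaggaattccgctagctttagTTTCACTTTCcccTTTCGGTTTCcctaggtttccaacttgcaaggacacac
IFI6: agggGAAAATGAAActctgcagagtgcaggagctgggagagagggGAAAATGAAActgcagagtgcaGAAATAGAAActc
BST2: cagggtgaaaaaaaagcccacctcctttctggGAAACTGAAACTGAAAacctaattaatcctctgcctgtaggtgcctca
B2M: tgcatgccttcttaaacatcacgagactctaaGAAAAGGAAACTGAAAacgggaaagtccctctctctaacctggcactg
SOCS1: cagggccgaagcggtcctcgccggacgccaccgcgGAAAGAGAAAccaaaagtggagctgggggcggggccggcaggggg
IRF1: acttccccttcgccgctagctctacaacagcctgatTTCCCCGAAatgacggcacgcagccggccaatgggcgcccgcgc

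No member of the group passed the test between activin B and vehicle. By limma, 0 of 42 members were higher in activin B at an adjusted p under 0.05, where 0.101% of all 19775 genes were, and 0 of 42 were lower, where 0.091% were. At an unadjusted p under 0.05, 5 of 42 members (11.9%) passed, 2 with a higher and 3 with a lower mean in activin B, against 5.89% of all genes. With any 1 array left out, the count of 5 became 2 (each vehicle array, and the second activin B array) or 3 (the first and the third activin B array). In 4 of 42 members (9.52%) the 3 activin B values lay all above or all below the 3 vehicle values, against 10.3% of all genes. The median log2 change was -0.017 over the members and -0.0017 over all genes. Estimates lay above 0 for 19 members and below 0 for 23, and ran from -0.17 for IFIH1 to 0.16 for DDX60. In bulk RNA, fewer cells that express a gene and less RNA per cell cannot be told apart, and this holds for every value given here.

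**Figure D1:**
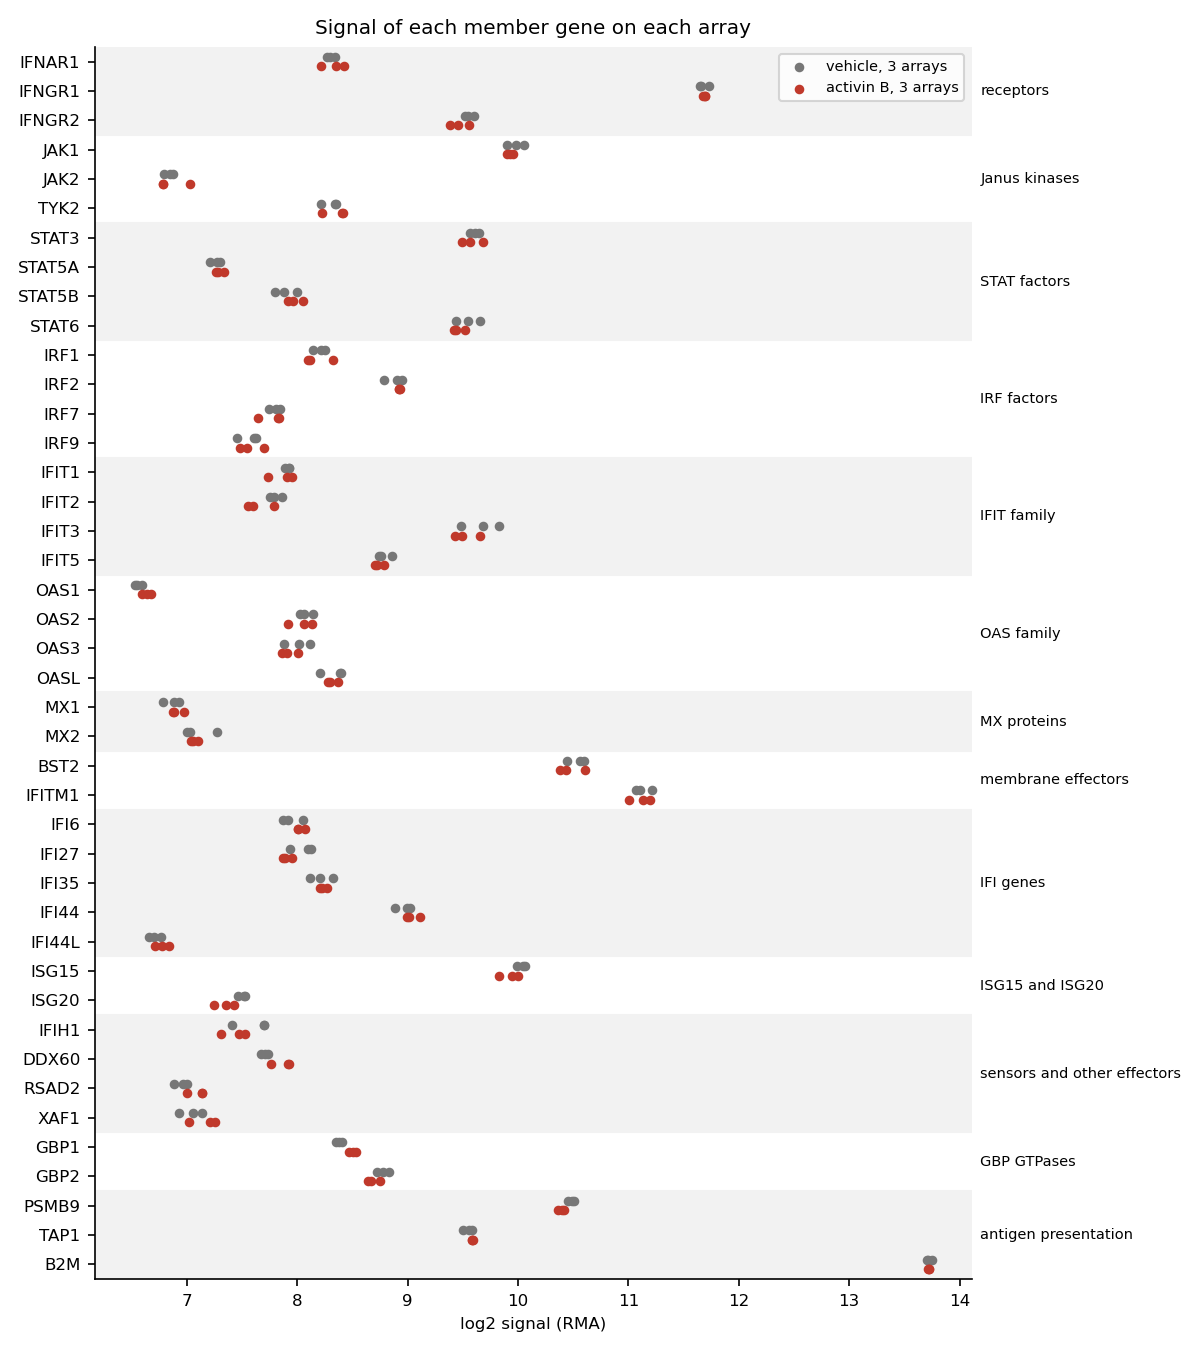
Log2 signal (x axis) of the probe set representing each of the 42 measured members (y axis, grouped by role) on 3 vehicle arrays (grey) and 3 activin B arrays (red). The grey and red points of a gene lie close together in every row, with B2M near 13.72 on all 6 arrays. Signals of different genes come from different probes and are not comparable with each other.

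How large a change the arrays could have shown is given by the intervals. Standard errors of the members' log2 changes lay between 0.060 and 0.086, with a median of 0.068 (0.069 over all genes). The model draws the variance of each probe set toward a value shared by all of them. Where replicates lay very close, the standard error therefore reflects that shared value more than the gene's own spread. B2M, for example, had standard deviations of 0.02 and 0.00 and a standard error of 0.060. All 42 of the 95% intervals lay within 0.5 of 0 on the log2 scale, as did those of 99.6% of all genes. Within 0.35 of 0 lay 41 of them (97.6%), against 97% of all genes, and the exception was IFIH1, whose interval reached -0.3504. The outermost bounds were -0.35 for IFIH1 and 0.30 for DDX60, and other members were bounded more tightly, for example B2M between -0.13 and 0.12. B2M had a vehicle mean of 13.72, close to the highest signal on the arrays, 14.22. Whether its signal was saturated was not tested.

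**Figure D2:**
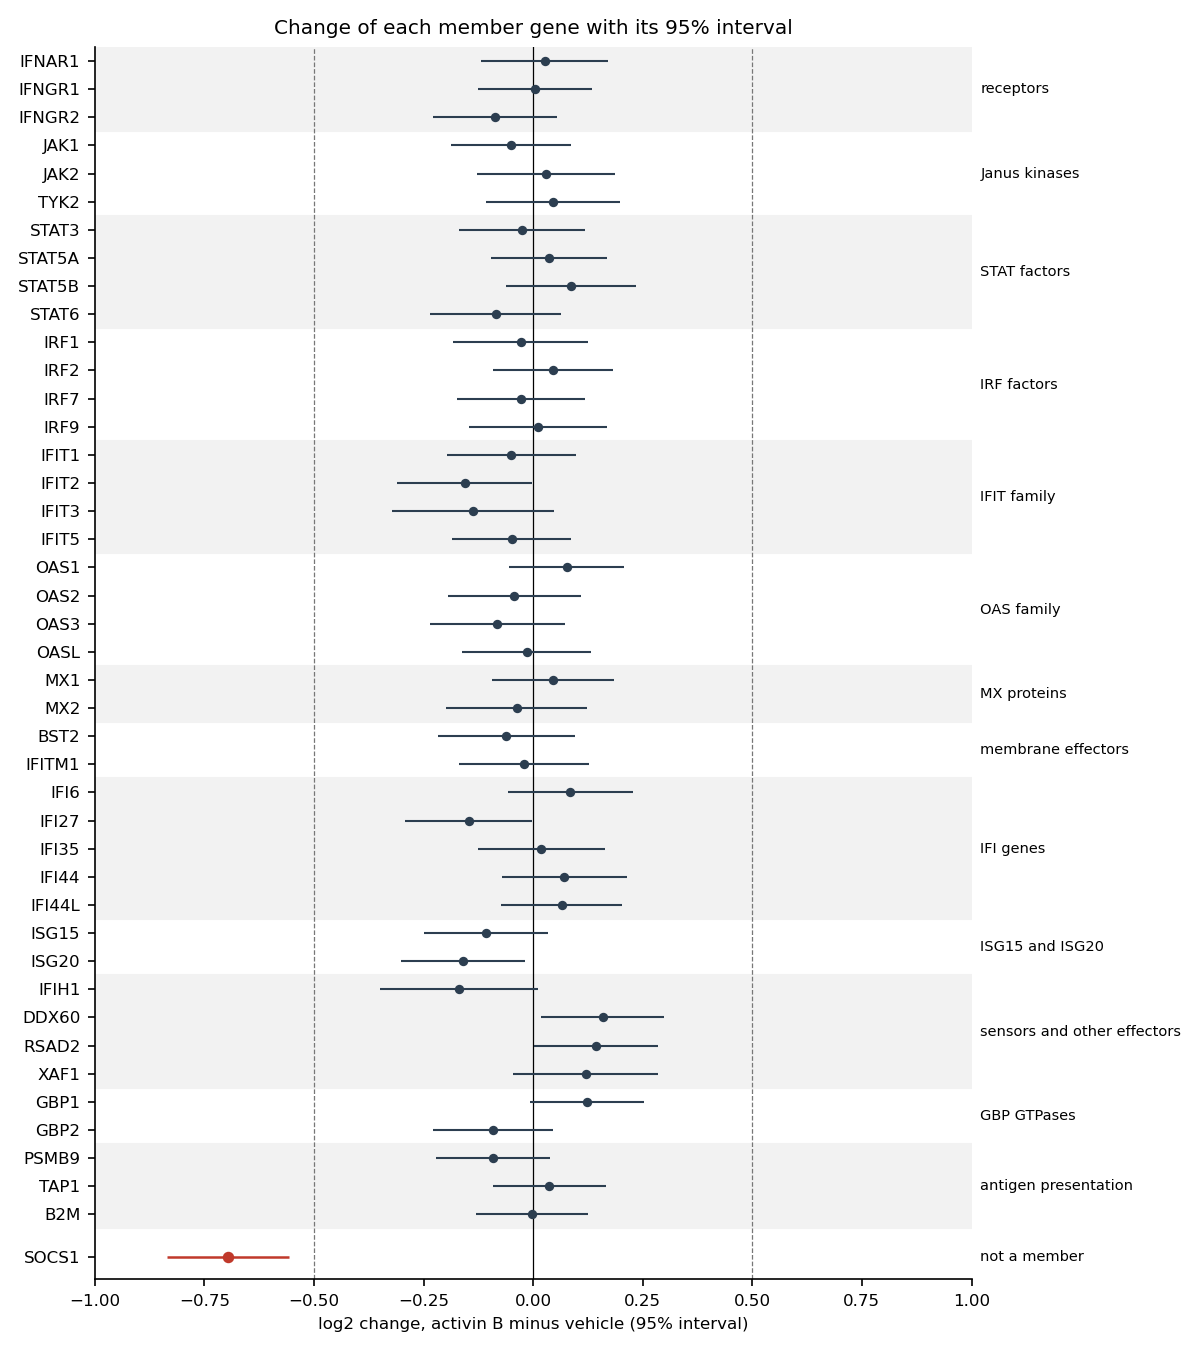
Log2 change from vehicle to activin B (x axis, points) with its 95% interval (bars) for the 42 measured members by role, and for SOCS1, which is no member (red, bottom). Dashed lines stand 0.5 on either side of 0: the bars of all 42 members lie between them, and the bar of SOCS1, from -0.83 to -0.56, lies outside.

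The receptor chains had steady signals. IFNGR1, the chain of the interferon gamma receptor that binds the ligand, stood at a log2 signal of 11.68 ± 0.05 under vehicle and 11.68 ± 0.01 under activin B (SD, n = 3). IFNGR2, its signaling partner, had 9.54, 9.52 and 9.60 on the vehicle arrays and 9.46, 9.39 and 9.56 on the activin B arrays, a log2 change of -0.087 with a 95% interval from -0.23 to 0.054. The type I receptor chain IFNAR1 had 8.30 ± 0.04 under vehicle and 8.33 ± 0.10 under activin B (SD, n = 3). For each of the 3 chains the values of the groups overlapped.

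The Janus kinases and STAT factors, which carry the signal from receptor to nucleus, showed estimates on both sides of 0. JAK1, shared by both receptor types, had a log2 change of -0.050, JAK2, which serves the interferon gamma receptor, 0.029, and TYK2, which serves the type I receptor, 0.045. Among the STAT factors, the estimate was -0.026 for STAT3, the effector of the interleukin 6 family, and -0.086 for STAT6, the effector of interleukin 4. STAT5A and STAT5B, effectors of prolactin and growth hormone, had estimates of 0.037 and 0.087. These 7 genes and the 3 receptor chains together had a median log2 change of 0.016, with estimates from -0.087 to 0.087 and a smallest adjusted p of 0.995. On the sets that represent these 10 genes, the groups overlapped in every one. On a further set each of JAK2 (log2 change 0.14, adjusted p = 0.942), STAT3 (0.17, adjusted p = 0.88) and STAT5B (0.11, adjusted p = 0.984), all activin B arrays lay above all vehicle arrays, and none of these sets was called.

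The IRF factors, which act with or downstream of the STAT factors, had the narrowest range of estimates among the classes with 4 members. IRF1, an early target of interferon gamma, had a log2 change of -0.028, and IRF2, its antagonist, one of 0.045. The estimates for IRF7, which drives transcription of type I interferon genes, and for IRF9, the DNA-binding partner of STAT factors at the ISRE, were -0.028 and 0.012. Their 95% intervals lay between -0.18 and 0.18, and all 4 overlapped between groups.

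The IFIT genes encode proteins that bind foreign RNA and are among the most strongly inducible targets of type I interferon. On the sets that represent them, all 4 had a negative estimate, and none passed the test. The signs held after quantile normalization, cyclic loess or median centring. The deposited values were already equalized between arrays, so these rescalings are a weak check. On its other set, IFIT5 had an estimate above 0, 0.047. IFIT2 (probe set 226757_at) had log2 signals of 7.79, 7.76 and 7.86 on the vehicle arrays and 7.56, 7.79 and 7.60 on the activin B arrays, and its log2 change was -0.16 ± 0.07 (SE; adjusted p = 0.942). The second activin B array lay among the vehicle values of IFIT2, and the other 2 lay below them. IFIT3 (probe set 229450_at) spread most of all members, over 0.40 on the log2 scale, with 9.49, 9.68 and 9.83 in vehicle and 9.50, 9.66 and 9.43 in activin B. Its log2 change was -0.14 ± 0.09 (SE; adjusted p = 0.991), and the spread within vehicle alone, from 9.49 to 9.83, was larger than the difference between the groups. IFIT1 and IFIT5 had log2 changes of -0.050 and -0.049. Averaged over the 4 genes after subtracting each gene's mean, the IFIT signal was -0.0019, 0.053 and 0.096 on the vehicle arrays and -0.072, 0.033 and -0.11 on the activin B arrays, so that the groups overlapped.

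The OAS genes encode synthetases that respond to double-stranded RNA, of which OASL lacks the enzymatic activity. OAS1, the only member below the median signal of all probe sets, had 6.53, 6.59 and 6.55 under vehicle and 6.59, 6.64 and 6.67 under activin B, which gave a log2 change of 0.077 (95% interval -0.054 to 0.21). The other 3 OAS genes had estimates of -0.043 for OAS2, -0.082 for OAS3 and -0.014 for OASL. The median signal of all probe sets was 6.69, itself a dim level. Vehicle means of IFI44L (6.71), JAK2 (6.84), MX1 (6.87) and RSAD2 (6.95) lay little above it. The MX proteins, GTPases that trap viral capsids, were split, with 0.045 for MX1 and -0.038 for MX2. The single vehicle array at 7.28 set the wide vehicle spread of MX2 (7.10 ± 0.15, SD, n = 3). Of the membrane effectors, BST2, which tethers budding virus to the cell surface, and IFITM1, which blocks virus entry, had log2 changes of -0.061 and -0.020.

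Among the 5 IFI genes, 4 had estimates above 0 and IFI27 had one below 0. IFI27 (probe set 202411_at), a small hydrophobic protein whose transcript is often used as a marker of interferon exposure, had log2 signals of 8.13, 7.93 and 8.09 on the vehicle arrays and 7.95, 7.89 and 7.87 on the activin B arrays. Its log2 change was -0.15 ± 0.07 (SE; adjusted p = 0.939). The second vehicle array lay among the activin B values. IFI6, which protects the endoplasmic reticulum during infection and holds 3 ISRE cores in the promoter window, had a log2 change of 0.084, IFI44 had 0.071, IFI44L had 0.065 and IFI35 had 0.018. All 4 overlapped between groups.

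ISG15 is a ubiquitin-like modifier and ISG20 an RNA exonuclease. ISG20 (probe set 204698_at) had the smallest p of all members: its log2 signals were 7.46, 7.52 and 7.52 in vehicle and 7.35, 7.24 and 7.43 in activin B, with no overlap, and its log2 change was -0.16 ± 0.07 (SE; adjusted p = 0.909), which corresponds to 1.12-fold. ISG15 (probe set 205483_s_at) had 10.05, 9.99 and 10.07 in vehicle and 9.95, 9.83 and 10.00 in activin B, and its log2 change was -0.11 ± 0.07 (SE; adjusted p = 0.988). A single activin B array of ISG15, at 10.00, lay above the lowest vehicle array. Neither gene passed the test.

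The sensors and remaining effectors pointed in both directions. DDX60 (probe set 218986_s_at), a helicase that promotes RNA sensing, had log2 signals of 7.67, 7.71 and 7.74 in vehicle and 7.76, 7.92 and 7.91 in activin B. The groups did not overlap, and the log2 change was 0.16 ± 0.07 (SE; adjusted p = 0.91). RSAD2 (probe set 213797_at), also called viperin, an enzyme that makes a chain-terminating nucleotide, had 6.88, 7.01 and 6.96 in vehicle and 7.14, 7.14 and 7.01 in activin B, so that the log2 change was 0.14 ± 0.07 (SE; adjusted p = 0.942). The highest vehicle array and the lowest activin B array of RSAD2 both stood at 7.01. IFIH1 (probe set 219209_at), the cytosolic RNA sensor MDA5, had 7.70, 7.70 and 7.41 in vehicle and 7.52, 7.47 and 7.31 in activin B, and the largest estimate in size of all members, -0.17 ± 0.08 (SE; adjusted p = 0.959). The third vehicle array of IFIH1 lay below 2 of the 3 activin B arrays. XAF1 (probe set 206133_at), a pro-apoptotic binding partner of the caspase inhibitor XIAP, had 7.06, 7.14 and 6.93 in vehicle and 7.26, 7.21 and 7.02 in activin B, so that the log2 change was 0.12 ± 0.08 (SE; adjusted p = 0.993). The third activin B array of XAF1 lay among the vehicle values.

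The guanylate-binding GTPases and the genes of antigen presentation answer mainly to interferon gamma. GBP1 (probe set 202270_at) had log2 signals of 8.41, 8.38 and 8.36 in vehicle and 8.53, 8.51 and 8.47 in activin B, without overlap, and a log2 change of 0.12 ± 0.06 (SE; adjusted p = 0.959). GBP2, of the same family, had an estimate on the other side of 0, -0.093. PSMB9, a catalytic subunit of the immunoproteasome, had 10.51, 10.45 and 10.49 in vehicle and 10.42, 10.40 and 10.36 in activin B, also without overlap, with a log2 change of -0.092 (95% interval -0.22 to 0.037; adjusted p = 0.995). TAP1, which carries peptides into the endoplasmic reticulum, had a log2 change of 0.037. B2M, the light chain of class I molecules, stood at 13.72 ± 0.02 under vehicle and 13.72 ± 0.00 under activin B (SD, n = 3), with overlapping groups. The replicates of GBP1 and PSMB9 lay close together, with standard deviations of 0.03 in each group of either gene.

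A single value per array summarised the group. After each gene's mean over the 6 arrays was subtracted, the mean over the 42 members was 0.015, 0.010 and -0.0076 on the vehicle arrays and 0.0080, -0.0061 and -0.020 on the activin B arrays. The group means were 0.0060 ± 0.0120 and -0.0060 ± 0.0139 (SD, n = 3), a difference of -0.012, close in size to the spread within either group. The values of the groups overlapped. Without the receptors, kinases and STAT factors, the difference over the other 32 genes was -0.015. The lowest value, -0.020, belonged to the third activin B array, which also stood apart on the first principal component of all probe sets (29.5% of the variance; a score of 21.7 against -10.6 to 5.70 for the other 5 arrays). Without that array the difference was -0.0050. The part of this array's position in the values above was not tested.

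Alternative probe sets gave a second reading of the same genes. The members had 83 probe sets in all, 19 genes with 1 and 23 genes with between 2 and 5. Of the 42 sets that represent a member, 14 have the suffix _s_at, given to sets whose probes match several transcripts. None of the 83 was called, and the smallest adjusted p was 0.859. At an unadjusted p under 0.05 stood 9 of them (10.8%), against 5.28% of all probe sets. All sets of a gene had estimates of the same sign in 15 of the 23 genes and differed in sign in 8. ISG20 and IFIT2 had estimates below 0 on both of their sets. For IFIH1, however, the estimates ran from -0.17 to 0.093 over its 3 sets, for XAF1 from -0.091 to 0.12 over 3, and for GBP1 from -0.071 to 0.12 over 4. With the mean of all sets of a gene in place of 1 set, the log2 change became -0.0023 for IFIH1, 0.018 for XAF1 and 0.011 for GBP1. The largest estimate in size was 0.21, on a second set of STAT5B, whose 5 sets all lay above 0 (0.015 to 0.21). STAT3 showed the widest disagreement of all, from -0.12 to 0.17 over 4 sets.

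**Figure D3:**
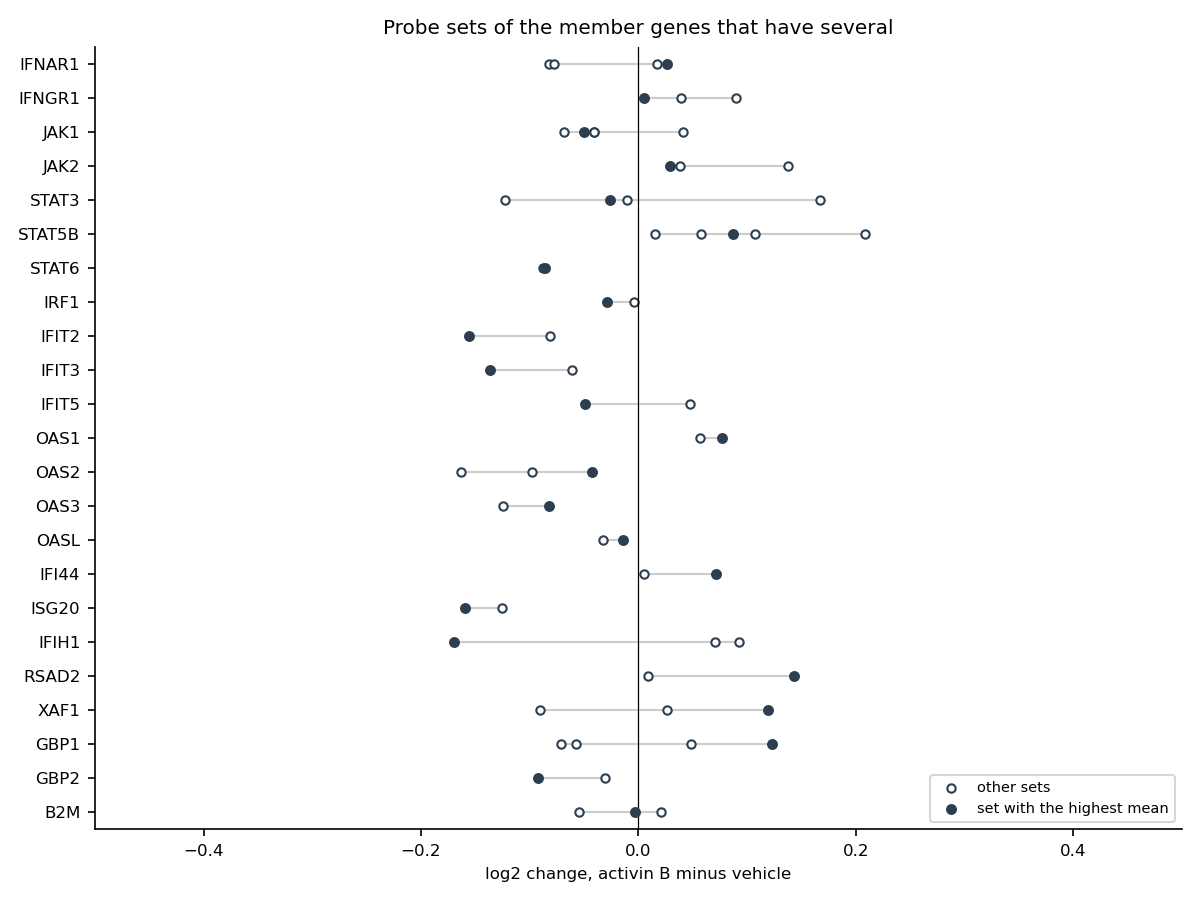
Log2 change from vehicle to activin B (x axis) of every probe set of the 23 members that have several, 1 gene per row, with the set of the highest mean signal filled and the others open. No set lies beyond 0.21 in size, and the grey lines cross 0 in 8 genes, among them STAT3, IFIH1, XAF1 and GBP1.

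The members with an ISRE core in the promoter window had estimates on both sides of 0, as had those without it. Over the 19 with the core, the median log2 change was -0.020, with 8 estimates above 0 and 11 below and a range from -0.17 to 0.16. Over the 16 without it, the median was 0.015, with 10 above 0 and 6 below and a range from -0.092 to 0.12. IFIH1, at one end of the range, and DDX60, at the other, both held the core. By the GAS core the medians were 0.015 over 10 members with it and -0.0028 over 25 without.

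**Figure D4:**
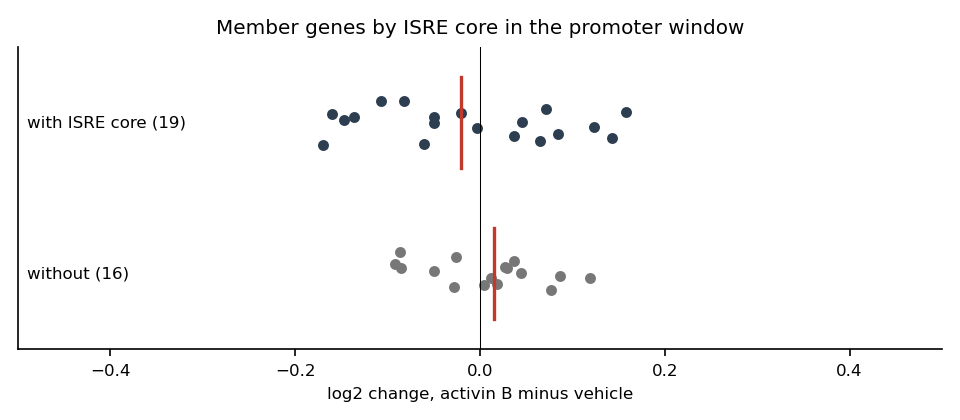
Log2 change from vehicle to activin B (x axis) of the 35 members with a promoter sequence, split by whether the window holds the ISRE core (19 genes, dark) or not (16 genes, grey); red bars mark the medians, -0.020 and 0.015. Points of both rows lie on both sides of 0.

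Other genes of the pathway were followed through lists written for this purpose. SOCS1, which encodes an inhibitor that binds Janus kinases and limits interferon signaling, fell and was the only gene of the lists to pass the test. Its log2 signals were 8.20, 8.08 and 8.19 on the vehicle arrays and 7.39, 7.50 and 7.49 on the activin B arrays, with every activin B value below every vehicle value. The mean went from 8.15 ± 0.07 to 7.46 ± 0.06 (SD, n = 3), a log2 change of -0.70 ± 0.07 (SE; 1.62-fold lower; limma adjusted p = 0.00014). That value came from 210001_s_at, the set with the highest mean of 4 SOCS1 probe sets, whose suffix marks probes shared by several transcripts. The log2 changes of the other 3 were -0.22 (adjusted p = 0.692), 0.03 and -0.04, and with the mean of all 4 sets the log2 change was -0.23 and not called (adjusted p = 0.14). SOCS1 is itself an interferon-inducible gene and its promoter window holds 1 ISRE core, shown above.

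The other 16 of 17 negative regulators did not pass the test. Among them were SOCS3 (log2 change -0.043), the related SOCS5 (0.091), CISH (0.022), the STAT inhibitor PIAS1 (0.039), the phosphatases PTPN2 (0.043) and PTPN11 (0.042), and USP18 (0.0096), which holds back the type I receptor. The median over all 17 was 0.022.

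Interferon genes themselves had dim signals. Of 10 listed ligands, 9 were measured, and their vehicle means lay between 6.03 and 6.47, near the low end of the array's range, which began at 5.79. None passed the test, and the largest estimates were -0.10 for IFNW1 and 0.086 for IFNE. IFNB1 had 6.32 in vehicle and 6.35 in activin B. No detection call came with the values used here, so a dim signal sets no limit on expression.

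None of 15 further receptors of the JAK-STAT pathway was called, although IL6R, the binding chain for interleukin 6, came nearest. Its signals were 9.69, 9.64 and 9.71 in vehicle and 9.46, 9.39 and 9.45 in activin B, without overlap, with a log2 change of -0.25 (adjusted p = 0.331). IL10RB, which serves interleukin 10 and type III interferons, followed at -0.15 (adjusted p = 0.934). The 11 measured targets of STAT3 and STAT5 held no call. IL6 had the smallest p, with 9.19, 9.58 and 9.87 in vehicle and 9.46, 9.81 and 9.95 in activin B, so that the log2 change was 0.20 (adjusted p = 0.995), and CCND1 had 0.086. The vehicle arrays of IL6 alone spread more widely than the difference between the groups.

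Of 12 genes of nucleic acid sensing and interferon induction, 0 passed. The double-stranded RNA receptor TLR3 had 7.70, 7.69 and 7.77 in vehicle and 7.47, 7.46 and 7.59 in activin B, so that the log2 change was -0.22 (adjusted p = 0.596), and its adapter TICAM1 had -0.17 (adjusted p = 0.934). A further 36 interferon-stimulated genes that are not members gave 0 calls, a median log2 change of -0.028 and estimates from -0.22 to 0.097. The chemokines CXCL10 and CXCL11 stood first among them by p. CXCL10 had 8.79, 8.65 and 8.56 in vehicle and 8.48, 8.48 and 8.42 in activin B, so that the log2 change was -0.21 (adjusted p = 0.741). CXCL11 had a log2 change of -0.22 (adjusted p = 0.918), with a vehicle array at 8.97 below all activin B arrays. Among 15 measured genes of class I antigen presentation, NLRC5, the transactivator of class I genes, had -0.22 (adjusted p = 0.91) and ERAP1, which trims peptides, -0.13 (adjusted p = 0.984), and the median was 0.0050. These genes were neither members nor called, and their values stand here as description.

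**Figure D5:**
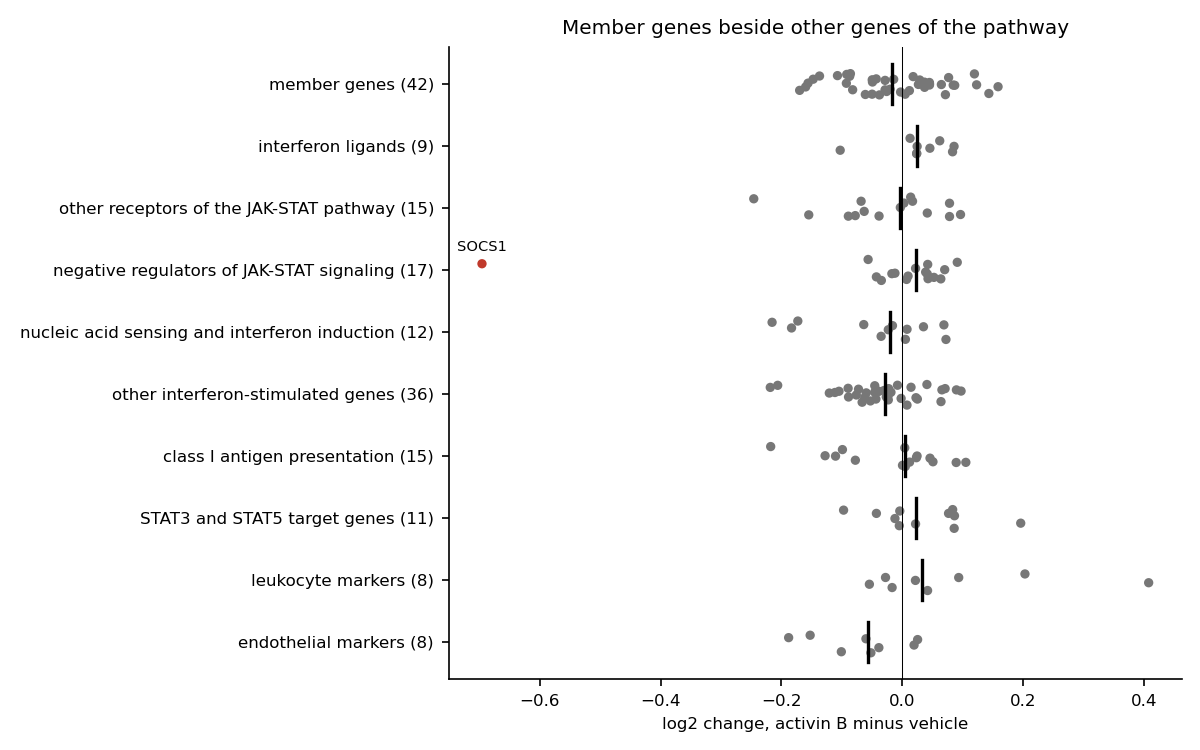
Log2 change from vehicle to activin B (x axis) of each measured gene of the member group and of 9 further lists (y axis, number of measured genes in brackets); black bars mark list medians and points are offset vertically only to separate them. SOCS1 (red), at -0.70, is the only called gene; the other points lie between -0.25 and 0.41.

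Markers of the line and of other cell types are given as values, since signals of different probe sets are not comparable and cannot show how pure the cells were. Genes of a mesenchymal-like triple-negative line had vehicle log2 signals of 13.89 for VIM, 12.60 for FN1, 12.50 for CD44, 11.96 for CAV1, 10.22 for AXL and 9.35 for EGFR. Genes of hormone-dependent or epithelial lines had 7.96 for ERBB2, 6.81 for ESR1, 6.51 for PGR, 6.27 for CDH1 and 6.20 for EPCAM, and none of the 11 was called. In ERBB2 (log2 change 0.10, adjusted p = 0.988) and EPCAM (0.16, adjusted p = 0.878) all activin B arrays lay above all vehicle arrays. The groups overlapped in the other line markers, and 10.3% of all genes had no overlap.

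Markers of leukocytes and endothelial cells held no call in these cultures of 1 cell line. Among the 8 measured leukocyte markers and the 8 endothelial markers, the groups did not overlap in 3, where 10.3% of all genes had no overlap. The leukocyte markers had vehicle means between 6.22 (PTPRC) and 6.98 (CD79A). Their log2 signals summed to 51.9 to 52.3 per vehicle array and 52.0 to 53.4 per activin B array. Such a sum of log2 signals is not an amount of RNA. CD79A, a chain of the B cell receptor complex, had 7.04, 6.96 and 6.94 in vehicle and 7.51, 7.21 and 7.45 in activin B (log2 change 0.41, adjusted p = 0.0698). CD3E, a chain of the T cell receptor complex, had 6.75, 6.70 and 6.79 in vehicle and 7.03, 7.02 and 6.80 in activin B (log2 change 0.20, adjusted p = 0.799). In both genes every activin B array lay above every vehicle array. The 8 endothelial markers had vehicle means between 6.08 (CDH5) and 7.84 (PECAM1). Their log2 signals summed to 52.9 to 53.6 per vehicle array and 52.3 to 52.8 per activin B array. PECAM1, an adhesion molecule of endothelial cells, had 7.97, 7.76 and 7.78 in vehicle and 7.70, 7.57 and 7.68 in activin B, all below the vehicle arrays (log2 change -0.19, adjusted p = 0.874). KDR, a receptor for vascular endothelial growth factor, had a log2 change of -0.15 (adjusted p = 0.951), and its groups overlapped. The part of these differences in the members' values was not tested.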

How the data were processed

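Gene expression was measured on Affymetrix Human Genome U133 Plus 2.0 arrays, 3 vehicle and 3 activin B, with groups and replicate numbers taken from the sample titles. The deposited values are log2 signals that the authors obtained by robust multiarray averaging (RMA) in Chipster. RMA equalizes the distributions of the arrays, which removes a shift shared by most transcripts, and compresses differences of dim probe sets. Array medians lay between 6.69 and 6.70, and correlations between arrays between 0.9935 and 0.9961. Scanner files were not analysed here, so neither background correction nor scan date could be examined.

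Names came from the annotation of the platform. Without 62 controls there were 54613 probe sets, of which 41091 had a single gene symbol, 1801 had several and 11721 had none here. The gene identifiers of 41037 named sets matched the RefSeq table of GRCh38.p14, with no symbol changed. The comparison used limma 3.58.1 under R 4.3.3 (empirical Bayes, residual degrees of freedom 4, prior 10.8), with Benjamini-Hochberg adjustment over all 54613 sets. A change was called at an adjusted p under 0.05. Intervals are 95% intervals of the same model.

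The members and lists were chosen with earlier results of these data known. Of the members, full statistics are given for the 8 with the smallest p and the 4 with the widest range over the 6 arrays; of the other lists, called genes and the 2 with the smallest p are named, and any others were chosen for their role after their values were seen. Listed genes that are not counted as measured were not analysed here. The same steps were also run on simulated arrays built from the fitted values, 3 against 3, with 200 changed sets in each of 8 runs. The noise was drawn independently for each array with the variances of the fitted model. Deviations shared by many probe sets of an array were thus not simulated, and the shares hold for that setting. Of log2 changes of 0.25 in size, 29.2% were called, and of those of 0.5, 100%. A mean of 9.15% of the calls were false. In such a setting, changes as small as the members' estimates would mostly be missed. Promoter windows were scanned for the ISRE and GAS cores on both strands. Alternatives covered the replicate block, filters, normalization, prior, array weights, choice of probe set and each array left out. Figures were drawn with matplotlib 3.10.9.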

Additional observations from a re-analysis of the deposited data

How the results depend on the processing

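Members called at an adjusted p under 0.05 numbered 0 in each direction in all 17 alternatives, with smallest adjusted p values from 0.614 (without vehicle replicate 3) to 1 (without vehicle replicate 2). The largest size of a member's log2 change over these settings was 0.27, for IFIH1 without vehicle replicate 3. The 10 members given with full statistics kept the sign of their estimate in all 17, but with the mean of all probe sets of a gene 3 of them came close to 0: IFIH1 (-0.0023), GBP1 (0.011) and XAF1 (0.018). The number of members at an unadjusted p under 0.05, 5 in the main analysis, was 2 with only probe sets at or above the median signal, 3 with median centring and 1 with a trend in the prior, and ranged from 2 to 3 when each array was left out in turn; it was 4 to 6 under the other alternatives, and the cause was not tested. Members without overlap numbered 4 to 6. The difference of the member mean stayed between -0.019 and -0.0034. SOCS1 was called in 17 of 18 settings and not with the mean of all probe sets (-0.23, adjusted p = 0.14).

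Over all probe sets, 40 were called higher and 26 lower. The counts were 15 and 10 with the mean of all probe sets of a gene, where fewer features were tested, and 22 higher with 1 set per gene adjusted over genes. Leaving out 1 array gave 25 to 50 higher and 7 to 26 lower. The replicate numbers were not treated as pairs: deviations of same-numbered arrays correlated at 0.162, 0.041 and 0.192, although each array correlated best with its own number. With the replicate block, 53 sets were called higher and 44 lower, members called stayed at 0, 6 members had an unadjusted p under 0.05, and the smallest adjusted p of a member was 0.622. Depth has no counterpart on these arrays, and 3 arrays per group limit the precision.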
